A study of Mus musculus with 10 samples.

Results

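A group of 10 genes of apoptotic cell clearance was followed in RNA sequencing counts of mammary macrophages and mammary epithelial cells (MECs): the receptor tyrosine kinases *Mertk*, *Axl* and *Tyro3* (the TAM receptors), the bridging ligands *Gas6*, *Pros1* and *Mfge8*, the stabilins *Stab1* and *Stab2*, and the scavenger receptors *Cd36* and *Lrp1*. They were taken by symbol, with earlier results of these data known, and all 10 were found once each among the 55487 genes of the count tables. All animals were diestrus-staged female mice, 10 wk old, on a BALB/c background, and both genotypes carried floxed *Cebpb* alleles (*Cebpb* fl/fl). WT mice lacked the *Csf1r-iCre* transgene, and *Cebpb*ΔM mice carried it, so that *Cebpb*, the gene of the transcription factor C/EBPβ, was deleted in cells that express the colony-stimulating factor receptor gene *Csf1r*. MECs were left after depletion of lineage-positive cells, with 2 WT and 2 *Cebpb*ΔM libraries, and macrophages were taken by positive selection with F4/80 antibody, with 2 WT and 4 *Cebpb*ΔM libraries. *Csf1r* is expressed by myeloid cells at large, so the deletion was not limited to the macrophages of the mammary gland, and the MECs of *Cebpb*ΔM mice were not themselves the target of the Cre.

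Dying cells expose phosphatidylserine on their surface, and phagocytes recognise it directly or through soluble bridging proteins. GAS6 and protein S, the product of *Pros1*, bind phosphatidylserine with one end and the TAM receptors with the other. MFG-E8, the product of *Mfge8*, bridges to alpha v integrins and is a major protein of the milk fat globule. Stabilins bind phosphatidylserine themselves and are also known from sinusoidal endothelium. CD36 takes up oxidised lipids and fatty acids and is made by macrophages, capillary endothelium and adipocytes, and LRP1 is an endocytic receptor of many ligands that is made by macrophages and fibroblasts. In the mammary gland, macrophages and epithelial cells both remove dying epithelial cells, above all when milk production ends.

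The total count was between 16935000 and 20174722 per macrophage library and between 25310926 and 27008166 per MEC library. *Cebpb* itself was barely detected in macrophages, with 13 and 15 counts in the libraries labelled WT and 16, 13, 5 and 4 counts in those labelled *Cebpb*ΔM. The genotypes overlapped at these counts, which therefore do not check the labels, and the gene did not pass the filter for testing in macrophages. In MECs, *Cebpb* had 25 and 28 counts in WT and 69 and 42 in *Cebpb*ΔM (adjusted *P* = 0.889 by edgeR's quasi-likelihood [QL] test). The summed level of 12 macrophage markers, in counts scaled to the library size (CPM) with trimmed mean of M-values (TMM) factors over all 10 libraries, was 7965 and 8972 in WT macrophages, 9900 to 15245 in *Cebpb*ΔM macrophages and 42.7 to 55.7 in MECs. The defining markers *Adgre1* (F4/80) and *Csf1r* were at 176 to 1772 CPM in every macrophage library. In MECs *Adgre1* was at most 0.526 CPM. *Csf1r* was at 8.77 to 10.2 CPM in WT MECs and at 17.2 to 19.5 CPM in *Cebpb*ΔM MECs. Markers of other cell types were present in both selections, and in these counts RNA of other cells cannot be told apart from RNA in engulfed material. Luminal markers summed to 11031 and 11288 CPM in WT macrophages, 5960 to 8177 CPM in *Cebpb*ΔM macrophages and 30235 to 38541 CPM in MECs. Endothelial markers summed to 2267 to 4219 CPM in macrophage libraries and 203 to 252 CPM in MECs, and fibroblast markers to 3556 to 7984 and 5486 to 6653 CPM. Adipocyte markers summed to 776 to 1583 CPM in macrophage libraries, with 8 of 12 above 1 CPM in both WT libraries, and to 114 to 144 CPM in MECs, although the defining *Adipoq* and *Plin1* were at most 3.80 CPM in any library. In bulk RNA, fewer cells of a type and less RNA per cell cannot be told apart.

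**Figure D1:**
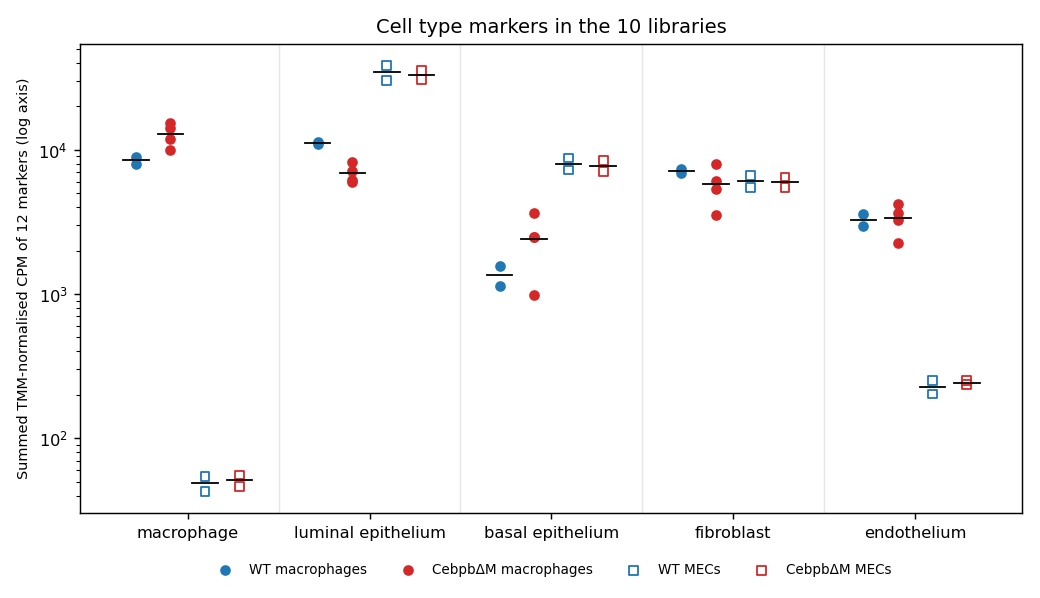
Summed TMM-normalised CPM of 12 markers (log axis) of macrophages, luminal epithelium, basal epithelium, fibroblasts and endothelium in each library; points are libraries, black lines are group means, filled circles are macrophage and open squares MEC libraries, blue is WT and red is *Cebpb*ΔM. Macrophage markers were at 9900 CPM or more in the 4 *Cebpb*ΔM macrophage libraries, above both WT libraries, and luminal markers at 8177 CPM or less, below both.

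To show the starting sequence of genes at opposite ends of the comparison between cell types, the 250 bases before the RefSeq transcription start (GRCm38.p6) are given for *Stab1* and *Cd36*, the members with the highest macrophage to MEC ratios, and for *Mfge8*, the member with the lowest. Each runs 5′ to 3′ on the strand of its gene, and capitals mark letters of a searched motif. The *Stab1* window is chr14:31168642-31168891 on the minus strand, that of *Cd36* chr5:17835897-17836146 on the minus strand, and that of *Mfge8* chr7:79149061-79149310 on the minus strand.
Stab1: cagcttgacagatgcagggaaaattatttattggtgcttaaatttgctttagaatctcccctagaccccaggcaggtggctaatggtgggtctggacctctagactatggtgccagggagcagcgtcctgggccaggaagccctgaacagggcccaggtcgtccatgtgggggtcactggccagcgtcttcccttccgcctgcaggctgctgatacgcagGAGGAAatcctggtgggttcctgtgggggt
Cd36: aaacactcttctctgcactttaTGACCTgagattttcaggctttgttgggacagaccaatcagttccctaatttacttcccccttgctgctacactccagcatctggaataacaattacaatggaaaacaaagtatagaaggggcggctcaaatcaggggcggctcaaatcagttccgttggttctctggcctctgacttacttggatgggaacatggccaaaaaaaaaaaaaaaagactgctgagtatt
Mfge8: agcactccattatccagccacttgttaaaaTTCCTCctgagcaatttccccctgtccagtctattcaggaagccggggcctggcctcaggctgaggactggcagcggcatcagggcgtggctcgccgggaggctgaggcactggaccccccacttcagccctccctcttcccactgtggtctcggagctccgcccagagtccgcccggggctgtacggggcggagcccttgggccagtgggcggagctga
Each full window held 250 bases before and 50 after the start, and all 10 members had one. The C/EBP motif TTGCNNAA was found on either strand in none of the 10 member windows and in 10.8% of all 32851 windows. The PU.1 core GAGGAA was found in the windows of *Axl*, *Mfge8* and *Stab1* and in 28.3% of all windows, and its longer form GAGGAAGT in no member and 3.20% of all windows. The hexamer AGGTCA, read by nuclear receptors such as PPARG, was found in *Cd36* and *Stab2* and in 16.3% of all windows. Letters in a window are a description and not evidence of binding, and *Cd36* is transcribed from several starts, of which RefSeq's table gives 1.

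Levels were compared between genes per kilobase of the deposited gene length (RPKM, which is CPM per kilobase, with TMM scaling over all 10 libraries). In WT macrophages, *Cd36* was the highest member at 314 RPKM ± 80.2 (SD, n = 2), followed by *Gas6* at 188 RPKM ± 58.6, *Mfge8* at 137 RPKM ± 5.64, *Pros1* at 66.5 RPKM ± 22.03 and *Axl* at 53.1 RPKM ± 0.831. *Stab1* followed at 25.7 RPKM ± 4.72, *Lrp1* at 11.9 RPKM ± 1.65 and *Mertk* at 8.21 RPKM ± 3.93, and *Tyro3* and *Stab2* were lowest at 1.19 RPKM ± 0.430 and 0.629 RPKM ± 0.252. Of these neighbours, *Pros1* and *Axl* overlapped in their WT libraries, as did *Lrp1* and *Mertk*, and the others did not. *Axl* was thus the TAM receptor with the most transcript in the macrophage libraries, above *Mertk* in each of them, and *Gas6* was the TAM ligand with the most. These libraries also held fibroblast, endothelial and epithelial markers, whose part in these levels was not tested. *Cebpb*ΔM macrophages had the same order of means, with *Cd36* at 336 RPKM ± 148 (n = 4) and *Stab2* at 0.266 RPKM ± 0.156, and there *Cd36* and *Gas6* overlapped whereas *Pros1* and *Axl* did not.

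In WT MECs the order differed at the top. *Mfge8* led at 512 RPKM ± 77.9 (n = 2), ahead of *Gas6* at 191 RPKM ± 14.3, *Pros1* at 37.6 RPKM ± 1.65 and *Axl* at 25.7 RPKM ± 6.86. *Lrp1* at 9.07 RPKM ± 3.16 and *Cd36* at 7.91 RPKM ± 0.728 overlapped, as did *Mertk* at 2.73 RPKM ± 0.699 and *Tyro3* at 2.48 RPKM ± 0.340. *Stab1* at 0.469 RPKM ± 0.0125 and *Stab2* at 0.0579 RPKM ± 0.00311 were lowest. *Axl* was therefore also the highest TAM receptor of the MEC libraries, and the bridging ligands took the 3 highest places.

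**Figure D2:**
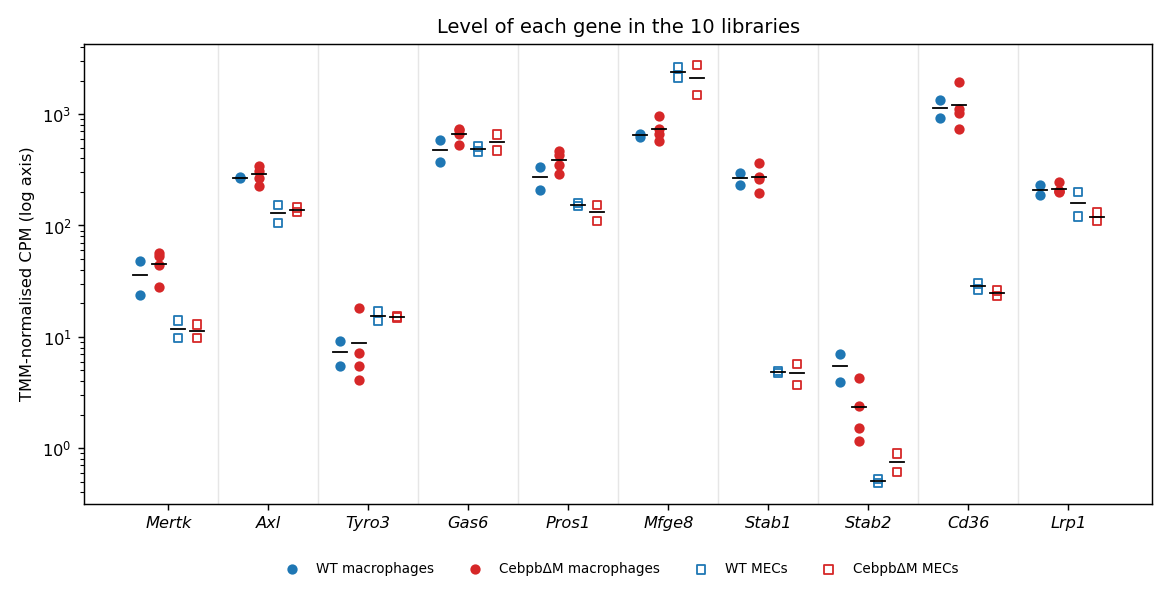
TMM-normalised CPM (log axis) of the 10 genes in the 10 libraries; points are libraries, black lines are group means, filled circles are macrophage and open squares MEC libraries, blue is WT and red is *Cebpb*ΔM. *Stab1* and *Cd36* lie far apart between cell types, *Mfge8* is higher in MECs, the WT libraries of both cell types overlap for *Gas6*, and in macrophages the *Cebpb*ΔM points of each gene overlap the WT points.

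Macrophages were compared with MECs in WT mice to show where each receptor and ligand is expressed. Of the 10 members, 5 were higher in macrophages (*Stab1*, *Cd36*, *Stab2*, *Mertk* and *Axl*), 1 was lower (*Mfge8*), and *Gas6*, *Pros1*, *Lrp1* and *Tyro3* did not pass the threshold. In this comparison 25.5% of all 18323 genes tested were called, 14.8% of them higher and 10.7% lower in macrophages, by edgeR's QL test with Benjamini–Hochberg adjustment at 0.05, and 37.9% had an unadjusted *P* under 0.05, 7 members among them. The likelihood ratio test called 30.1% and DESeq2 31.1% of the genes, with the same 6 members and *Pros1*. The median log2 fold change was 0.94 over the members and 0.06 over all genes tested. WT libraries of the cell types did not overlap for 8 of the 10 members, against 65.1% of all genes tested. The cell types were isolated by different procedures and their libraries were numbered separately, so cell type and isolation cannot be told apart.

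The TAM receptors differed in this comparison. *Axl* encodes a TAM kinase of myeloid, stromal and endothelial cells, and its level was 264 and 270 CPM in WT macrophages and 154 and 105 CPM in WT MECs. The groups did not overlap, with a log2 fold change of 1.05 (standard error [SE] 0.24, adjusted *P* = 0.00949), which is 2.07-fold (95% interval 1.43 to 3.01). *Mertk*, the TAM kinase best known for uptake of dying cells by macrophages, was at 23.6 and 47.7 CPM in WT macrophages and at 14.0 and 9.71 CPM in WT MECs. It was higher in macrophages by a log2 fold change of 1.59 (SE 0.40, adjusted *P* = 0.0143), and macrophage library 4 was nearer to MECs than to macrophage library 5. *Tyro3*, the TAM kinase best known from the nervous system, was at 5.47 and 9.24 CPM in WT macrophages and 16.9 and 13.9 CPM in WT MECs. Its groups did not overlap and its log2 fold change was -1.06 (95% interval -2.36 to 0.24, adjusted *P* = 0.214). The calls of *Axl* and *Mertk* depended on single libraries. Without MEC WT 3 the adjusted *P* was 0.0965 for *Axl* and 0.121 for *Mertk*, and without macrophage WT 5 it was 0.110 for *Mertk*. Over all alternatives the adjusted *P* ranged from 0.000644 to 0.0965 for *Axl* and from 0.00126 to 0.121 for *Mertk*.

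Of the bridging ligands, *Mfge8* alone passed the test. It was at 664 and 627 CPM in WT macrophages and at 2662 and 2145 CPM in WT MECs. It was lower in macrophages by a log2 fold change of -1.90 (SE 0.32, adjusted *P* = 0.00142), that is 3.72-fold higher in MECs. Luminal markers were 3.08-fold and basal markers 5.94-fold higher in WT MECs than in WT macrophages by their summed CPM, with all 12 luminal markers, and in each group 11 of 12 basal markers, above 1 CPM in all of its libraries, and their part in the *Mfge8* level of the macrophage libraries was not tested. *Gas6*, which activates all TAM receptors, was at 374 and 585 CPM in WT macrophages and 460 and 512 CPM in WT MECs. These libraries overlapped, and the log2 fold change was -0.02 (95% interval -0.59 to 0.55, adjusted *P* = 0.968). *Pros1*, also an anticoagulant of plasma, was at 208 and 336 CPM in WT macrophages and 149 and 159 CPM in WT MECs. Its log2 fold change was 0.82 (95% interval 0.19 to 1.46) with an adjusted *P* of 0.0589, and it was called by the likelihood ratio test (adjusted *P* = 0.0334) and by DESeq2 (adjusted *P* = 0.0394), with adjusted *P* of 0.020 to 0.323 over all alternatives.

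The stabilins and CD36 separated the cell types most. *Stab1* was at 230 and 299 CPM in WT macrophages and at 4.73 and 4.92 CPM in WT MECs. Its log2 fold change of 5.77 (SE 0.36, adjusted *P* = 1.52e-06) is 54.8-fold (95% interval 31.8 to 94.3). *Cd36* was at 924 and 1331 CPM in WT macrophages and at 30.3 and 26.6 CPM in WT MECs, with a log2 fold change of 5.31 (SE 0.45, adjusted *P* = 1.38e-05), or 39.7-fold (95% interval 19.9 to 79.1). No libraries of the cell types overlapped for these genes, *Cebpb*ΔM included. *Stab2* was scarce throughout, with 141 and 83 counts in WT macrophages and 13 and 12 counts in WT MECs. It was higher in macrophages by a log2 fold change of 3.43 (SE 0.72, adjusted *P* = 0.00532), and without MEC WT 3 the adjusted *P* was 0.0544, the highest of 7.13e-05 to 0.0544 over the alternatives. *Lrp1* was at 190 and 231 CPM in WT macrophages and 200 and 121 CPM in WT MECs, which overlap (log2 fold change 0.39, 95% interval -0.15 to 0.93, adjusted *P* = 0.273).

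Marker sums give these ratios a scale. Between WT macrophages and WT MECs the summed macrophage markers differed 174-fold, T and B lymphocyte markers 74.1-fold, endothelial markers 14.4-fold, adipocyte markers 6.07-fold, neutrophil and monocyte markers 5.94-fold, dendritic cell markers 2.69-fold and fibroblast markers 1.18-fold. *Stab1* and *Cd36* had ratios between those of the endothelial and the lymphocyte markers. *Stab2*, at a log2 fold change of 3.43, lay between the adipocyte (log2 ratio 2.60) and endothelial (3.85) markers. *Axl* at 2.07-fold, *Pros1* at 1.77-fold and *Lrp1* at 1.31-fold lay between the fibroblast and the dendritic cell markers. The part of fibroblast or dendritic cell RNA in these levels was not tested. All 12 endothelial markers were above 1 CPM in every library, with the defining *Pecam1* at 322 to 823 CPM in macrophage and 37.5 to 51.6 CPM in MEC libraries. Endothelial and adipocyte markers moved with the cell type as the stabilins and *Cd36* did, and their part in these levels was not tested.

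**Figure D3:**
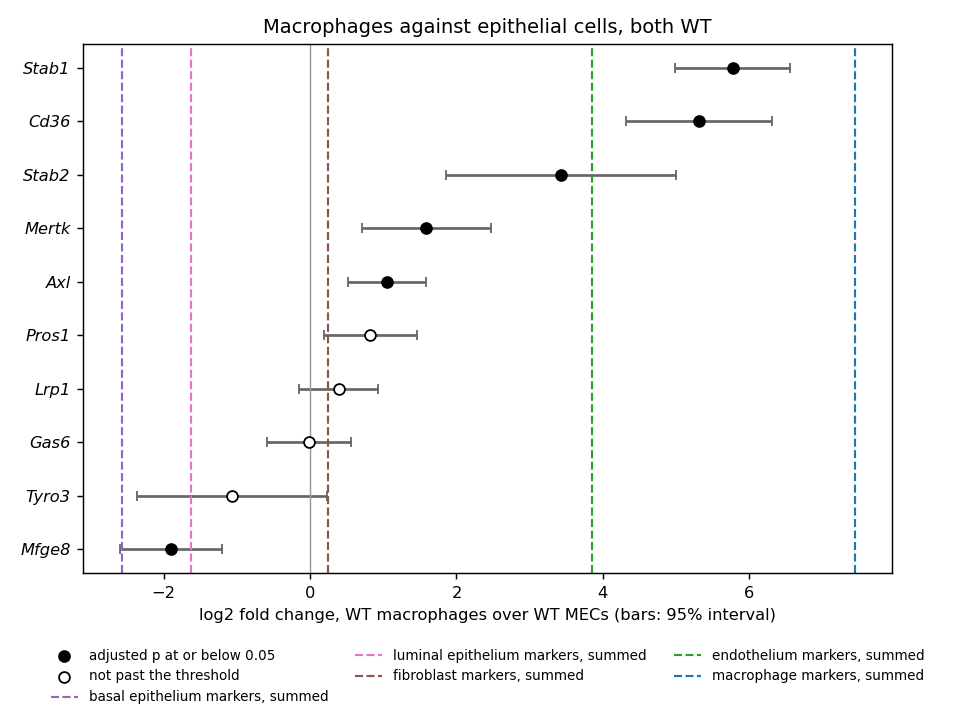
Log2 fold change of each gene in WT macrophages over WT MECs, with 95% intervals from the fit of all 10 libraries; filled points passed the threshold and open points did not, and dashed lines mark the log2 ratio of summed marker CPM for 5 cell types. *Stab1*, *Cd36*, *Stab2*, *Mertk* and *Axl* lie to the right of 0 and *Mfge8* to the left, with *Mfge8* near the luminal marker line at -1.62.

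Other genes of cell clearance were counted by lists. Of 127 tested genes in 9 lists, 53 were higher and 15 lower in WT macrophages, with a median log2 fold change of 0.53, where 14.8% of all genes tested were higher and 10.7% lower. Of 20 tested other uptake receptors, 14 were higher and 1 lower, with a median of 4.64. *Itgb2*, a chain of the complement receptor integrins, was at 234 CPM ± 3.43 in macrophages and 0.993 CPM ± 0.255 in MECs (n = 2 each, adjusted *P* = 4.32e-07). *Trem2*, a lipid-sensing receptor, was at 50.7 CPM ± 3.38 in macrophages with at most 1 count in an MEC WT library, and *Timd4*, a phosphatidylserine receptor of resident macrophages, was at 39.4 CPM ± 2.35 with 0 counts in both MEC WT libraries. Of 13 other bridging and opsonin genes, 4 were higher and 4 lower, and the complement genes *C1qb*, *C1qa* and *C1qc*, whose products coat dying cells, were at 872 CPM ± 277, 1006 CPM ± 281 and 457 CPM ± 163 in macrophages and under 1 CPM on average in MECs.

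Of 18 genes of the engulfment machinery, 7 were higher and 1 lower, led by the haematopoietic small GTPase gene *Rac2* (121 CPM ± 6.04 in WT macrophages, at most 2 counts in an MEC WT library), its exchange factor *Dock2* and the actin regulator *Was*. Of 11 do-not-eat-me genes, 6 were higher and 1 lower, and the inhibitory receptor genes *Lilrb4a*, *Pirb* and *Sirpa*, the last for the receptor of CD47, led with 72.3 CPM ± 11.8, 48.2 CPM ± 8.58 and 123 CPM ± 21.7 in WT macrophages. Of 15 genes of cholesterol and lipid efflux, 8 were higher and 0 lower (QL test; 9 had an unadjusted *P* under 0.05), with the cholesterol exporter *Abca1* at 181 CPM ± 31.1 against 50.2 CPM ± 4.85 in MECs (adjusted *P* = 0.000284), the lipid-responsive nuclear receptor gene *Pparg* at 31.4 CPM ± 18.8 against 2.19 CPM ± 0.522, and the lysosomal lipase gene *Lipa* at 224 CPM ± 32.2 against 65.9 CPM ± 3.39. Of 10 find-me genes, 4 were higher and 2 lower, with *P2ry6*, a receptor for nucleotides, at 91.3 CPM ± 10.4 against 7.13 CPM ± 0.266, and *Gpr132* and *S1pr1*, lipid receptor genes, also higher.

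Of 16 genes of phagosome maturation and LC3-associated phagocytosis, 3 were higher and 2 lower, with *Cybb*, the catalytic chain of the phagocyte oxidase, at 202 CPM ± 21.0 against 0.628 CPM ± 0.0268, and the lysosomal genes *Dnase2a* and *Lamp1* also higher. Of 11 genes of phosphatidylserine exposure, 3 were higher and 0 lower (4 had an unadjusted *P* under 0.05), among them the flippase gene *Atp8a1* and the scramblase gene *Xkr8*. The calls in these lists of 16 and 11 genes were near the 25.5% called over all genes. Of 13 genes of receptor shedding and TAM signalling, 4 were higher and 4 lower. *Plaur*, the urokinase receptor gene, was lower in WT macrophages at 190 CPM ± 10.99 against 496 CPM ± 31.0 (adjusted *P* = 0.0027), and *Ggcx*, which encodes the carboxylase that both GAS6 and protein S require, was higher at 69.9 CPM ± 17.3 against 33.9 CPM ± 4.12.

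*Cebpb*ΔM macrophages were compared with WT macrophages to show whether uptake genes differ when C/EBPβ is deleted. None of the 10 members was called, and 0.0% of the 17772 genes tested were called by the QL test, whereas 8.63% had an unadjusted *P* under 0.05, none of them a member. The likelihood ratio test called 0.777% of the genes and DESeq2 1.13%, again without a member. In no member did the genotypes separate, against 18.7% of all genes tested. The median log2 fold change was 0.12 over the members and 0.00402 over all genes tested, and 8 of 10 members had a value above 0. Exact permutation over these libraries cannot give a *P* below 0.0667 with 4 against 2. Levels from here are scaled within each cell type.

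Among TAM receptors, *Mertk* was at 24.6 and 49.8 CPM in WT macrophages and at 28.9, 45.1, 57.7 and 54.8 CPM in *Cebpb*ΔM macrophages 4 to 7. Library 4 was the lowest of each genotype, and the log2 fold change was 0.32 (95% interval -0.49 to 1.14, adjusted *P* = 0.861). *Axl* was at 276 and 283 CPM in WT and at 277, 320, 229 and 355 CPM in *Cebpb*ΔM macrophages, on both sides of WT (log2 fold change 0.08, 95% interval -0.37 to 0.53, adjusted *P* = 0.952). *Tyro3* was at 5.71 and 9.66 CPM in WT and at 18.7, 7.37, 4.16 and 5.69 CPM in *Cebpb*ΔM macrophages. Library *Cebpb*ΔM 4 was the highest for *Tyro3*, and without it the log2 fold change turned from 0.23 to -0.42 (adjusted *P* = 0.828, with 0.786 to 0.99 over the alternatives). Basal markers summed to 3663 CPM in that library, the highest macrophage library, and to 992 to 2493 CPM in the others, and their part in the *Tyro3* value was not tested.

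Both TAM ligands had higher means in *Cebpb*ΔM macrophages without passing the test, and the size of the difference depended on the WT libraries. *Gas6* was at 390 and 612 CPM in WT and at 737, 544, 674 and 761 CPM in *Cebpb*ΔM macrophages. WT 5 lay above 1 of the 4 *Cebpb*ΔM libraries, and the log2 fold change was 0.44 (95% interval -0.08 to 0.96, adjusted *P* = 0.638), with 0.15 without WT 4 and 0.80 without WT 5. *Pros1* was at 217 and 351 CPM in WT and at 299, 359, 476 and 446 CPM in *Cebpb*ΔM macrophages. Again WT 5 lay above 1 *Cebpb*ΔM library, with a log2 fold change of 0.47 (95% interval -0.12 to 1.07, adjusted *P* = 0.652), 0.17 without WT 4 and 0.86 without WT 5. *Mfge8* was at 693 and 655 CPM in WT and at 995, 685, 755 and 594 CPM in *Cebpb*ΔM macrophages, with both genotypes overlapping (log2 fold change 0.17, adjusted *P* = 0.888).

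*Stab2* had the largest difference in size of the members. It had 141 and 83 counts in WT and 30, 24, 78 and 40 counts in *Cebpb*ΔM macrophages, or 7.38 and 4.13 CPM against 1.57, 1.203, 4.33 and 2.47 CPM. The highest *Cebpb*ΔM library lay just above the lower WT library, and the log2 fold change of -1.27 had a 95% interval of -2.57 to 0.04 (adjusted *P* = 0.587). With a library left out it ranged from -1.72 (without *Cebpb*ΔM 6) to -0.79 (without WT 4). *Stab1* was at 240 and 313 CPM in WT and at 203, 283, 374 and 271 CPM in *Cebpb*ΔM macrophages (log2 fold change 0.03, 95% interval -0.53 to 0.60, adjusted *P* = 0.986). *Cd36* was at 964 and 1392 CPM in WT and at 750, 1154, 2006 and 1049 CPM in *Cebpb*ΔM macrophages, with the lowest and the highest value both in *Cebpb*ΔM (log2 fold change 0.07, 95% interval -0.75 to 0.90, adjusted *P* = 0.978). *Lrp1* was at 198 and 242 CPM in WT and at 205, 251, 207 and 212 CPM in *Cebpb*ΔM macrophages (log2 fold change -0.00528, 95% interval -0.39 to 0.38, adjusted *P* = 0.998). For *Mertk*, *Axl*, *Stab1*, *Cd36* and *Lrp1* the sign of the log2 fold change turned when a single library was left out.

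**Figure D4:**
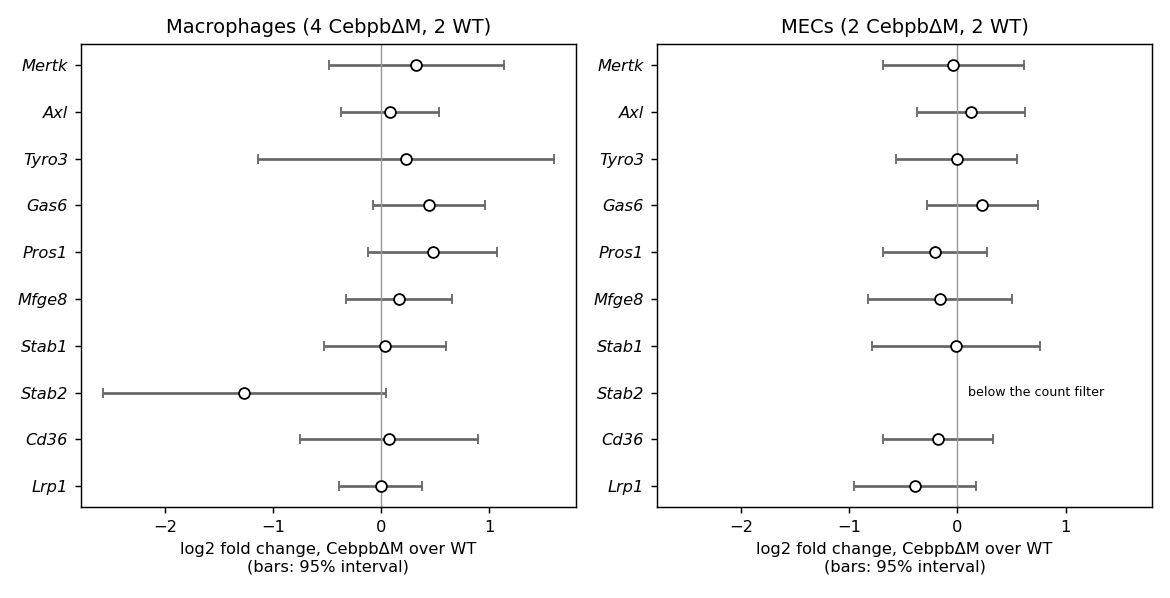
Log2 fold change of *Cebpb*ΔM over WT for each gene in macrophages (left, 4 against 2 libraries) and MECs (right, 2 against 2 libraries), with 95% intervals from edgeR's QL fit of each cell type. Every interval includes 0, and in macrophages *Stab2* lies lowest at -1.27; in MECs *Stab2* was below the count filter.

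Marker sums also moved with genotype. The summed macrophage markers were 1.51-fold higher in *Cebpb*ΔM than in WT macrophage libraries, with no overlap. T and B lymphocyte markers were also higher with no overlap, at 283 to 420 CPM against 176 and 188 CPM. Of those 12 markers 3 were above 1 CPM in all libraries of each genotype. Luminal markers were lower with no overlap, whereas basal markers were above both WT libraries (1558 and 1141 CPM) in *Cebpb*ΔM 4, 5 and 6, at 2487 to 3663 CPM, and below both in *Cebpb*ΔM 7, at 992 CPM. The other 5 marker lists overlapped between the genotypes. Member levels were also divided by the summed macrophage markers of their library. Of the 10 members, 0 then had a higher mean in *Cebpb*ΔM macrophages, against 9 before by CPM over all 10 libraries. That count was nearly fixed by the divisor, which was 1.51-fold higher in *Cebpb*ΔM. The largest ratio of a member before division was 1.41, for *Pros1*. The count therefore cannot tell where the higher means came from. After division *Gas6* and *Pros1* were each at 0.94-fold of their WT mean. *Axl*, *Stab1*, *Stab2* and *Lrp1* were then lower in *Cebpb*ΔM macrophages without overlap, and the other members overlapped. The divisor itself separated the genotypes and the share over all genes was not taken, so this is no result about these members. The part of the marker shifts in the members' values was not tested.

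In MECs of the same genotypes, no member was called either. Of the 15698 genes tested, 0.051% were called by the QL test, 1.14% by the likelihood ratio test and 1.03% by DESeq2, 5.42% had an unadjusted *P* under 0.05, none of them a member, and the genotypes did not overlap in 28.7%. *Stab2* had 13 and 12 counts in WT and 15 and 23 counts in *Cebpb*ΔM MECs and was below the filter, and the genotypes of 1 of the other 9 members did not overlap. *Mfge8* was at 2501 and 2048 CPM in WT and at 2618 and 1451 CPM in *Cebpb*ΔM MECs, a wider spread within *Cebpb*ΔM than between the genotypes (log2 fold change -0.16, 95% interval -0.83 to 0.50, adjusted *P* = 1). *Gas6* was at 432 and 489 CPM in WT and at 619 and 461 CPM in *Cebpb*ΔM MECs (log2 fold change 0.23, 95% interval -0.28 to 0.74). *Pros1* was at 140 and 151 CPM in WT and at 145 and 107 CPM in *Cebpb*ΔM MECs (log2 fold change -0.21, 95% interval -0.69 to 0.27).

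The receptors of MECs overlapped between the genotypes, apart from *Cd36*. *Axl* was at 144 and 100 CPM in WT and at 138 and 129 CPM in *Cebpb*ΔM MECs (log2 fold change 0.13, 95% interval -0.38 to 0.63), and *Mertk* at 13.2 and 9.27 CPM against 9.22 and 12.6 CPM (log2 fold change -0.04, 95% interval -0.69 to 0.62). *Tyro3* was at 15.8 and 13.3 CPM in WT and at 14.4 and 14.6 CPM in *Cebpb*ΔM MECs (log2 fold change -0.01, 95% interval -0.57 to 0.55). *Cd36* was at 28.4 and 25.4 CPM in WT and at 24.6 and 22.8 CPM in *Cebpb*ΔM MECs, the member whose libraries did not overlap (log2 fold change -0.18, 95% interval -0.69 to 0.33). *Lrp1* was at 188 and 116 CPM in WT and at 104 and 127 CPM in *Cebpb*ΔM MECs, with the largest difference of the 9 (log2 fold change -0.39, 95% interval -0.96 to 0.17). *Stab1* was at 4.45 and 4.69 CPM in WT and at 3.50 and 5.58 CPM in *Cebpb*ΔM MECs (log2 fold change -0.01, 95% interval -0.79 to 0.77). The adjusted *P* was 1 for each of the 9. With 2 against 2 libraries, exact permutation cannot give a *P* below 0.333.

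The genotype effects of the cell types were compared directly by an interaction over all 10 libraries. No member was called, with 0.0% of the 18323 genes called by the QL test and 5.19% at an unadjusted *P* under 0.05, no member among them. The likelihood ratio test called 0.289% and DESeq2 0.147% of the genes, without a member. *Stab2* had the largest value, a log2 difference of -1.80 (95% interval -3.75 to 0.14, adjusted *P* = 0.965), on 12 to 23 counts per MEC library. *Pros1* followed with 0.73 (95% interval -0.12 to 1.57, adjusted *P* = 0.976), from a higher mean in *Cebpb*ΔM macrophages and a lower mean in *Cebpb*ΔM MECs. The other 8 members had log2 differences of at most 0.44 in size.

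None of the other 127 tested uptake genes was called by the QL test in macrophages, where 15 had an unadjusted *P* under 0.05, the likelihood ratio test called 1 and DESeq2 called 3. Over all genes 8.63% had such a *P*, and these tests called 0.777% and 1.13%. The median log2 fold change over the uptake genes was 0.10, against 0.00402 over all genes. *C1qc* was at 478 CPM ± 171 in WT (n = 2) and 1108 CPM ± 153 in *Cebpb*ΔM macrophages (n = 4), a log2 fold change of 1.21 (SE 0.24, adjusted *P* = 0.452 by the QL test, 0.0062 by the likelihood ratio test and 0.000893 by DESeq2). *Timd4* was at 41.1 CPM ± 2.52 in WT and 73.8 CPM ± 13.5 in *Cebpb*ΔM macrophages (log2 fold change 0.84, SE 0.22, adjusted *P* = 0.452 by the QL test and 0.0417 by DESeq2). Over all alternatives the adjusted *P* reached 0.797 for both genes, and DESeq2 gave the lowest. *C1qa*, the third gene called by DESeq2 (adjusted *P* = 0.0343), is also 1 of the 12 macrophage markers. These are genes of resident macrophages, and the summed macrophage markers were higher in the same libraries, whose part was not tested. In the other lists the smallest *P* belonged to *Was* (log2 fold change 0.84), *Tmem30a*, a flippase chaperone (0.49), *P2ry6* (0.68), *Lilrb4a* (0.68), the lysosomal membrane gene *Lamp1* (0.91), the cholesterol carrier *Npc2* (0.40) and the sheddase *Adam10* (-0.57), with adjusted *P* of 0.472 to 0.556.

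In MECs, none of the 105 tested genes of these lists was called by the QL test, 9 had an unadjusted *P* under 0.05 (5.42% of all genes), and the median log2 fold change was -0.04. *Lamp1* came closest, at 42.7 CPM ± 7.54 in WT and 112 CPM ± 17.6 in *Cebpb*ΔM MECs (n = 2 each, log2 fold change 1.39, SE 0.23, adjusted *P* = 0.0745). *Panx1*, a channel that releases nucleotides from dying cells, was at 7.20 CPM ± 0.511 in WT and 18.8 CPM ± 7.34 in *Cebpb*ΔM MECs (log2 fold change 1.38, SE 0.32, adjusted *P* = 0.169). *Lamp1*, *Panx1* and *Map1lc3a*, an autophagosome gene, were the 3 genes called by both the likelihood ratio test (adjusted *P* of 3.55e-05, 0.0122 and 0.0415) and DESeq2 (6.65e-05, 0.0115 and 0.0496), which called 1.14% and 1.03% of all genes. Over all alternatives the adjusted *P* ranged from 3.55e-05 to 0.739 for *Lamp1* and from 0.00168 to 1 for *Panx1*. In the other lists the smallest *P* belonged to *Itgav*, the alpha v integrin chain to which MFG-E8 binds (log2 fold change 0.55, adjusted *P* = 0.916), *C3* (0.58), *Rac1* (0.60), *Tmem30a* (0.34), *B2m* (0.88), *Slc29a1* (0.33) and *Socs1* (0.94), with adjusted *P* of 0.291 or more. In the interaction none of 127 was called and 10 had an unadjusted *P* under 0.05 (5.19% of all genes), the smallest being that of the oxidised lipid receptor gene *Olr1* (log2 difference 2.96, adjusted *P* = 0.833). In the remaining lists the lowest *P* included those of *Vav1* (2.33), *Map1lc3a* (-0.85), *Abca1* (0.73), *P2ry6* (0.82), *C1qc* (1.26), *Cd24a* (0.42) and *Atp8a1* (-0.31), each with an adjusted *P* of 0.923 or more.

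For 4 members the 3 genes most like them were taken by Pearson's r of log2 CPM over the 10 libraries among all 18323 genes. The mean of each cell type was subtracted first, so r describes deviations within cell types and not the difference between them. The values are a description, since libraries of a cell type share their isolation and the members were not independent of it. *Mertk* was most like *Plxna4os1* (r = 0.953), *Ankrd29* (0.947) and *Bmp2k* (0.944). *Axl* was most like *Gm44243* (0.904), *Gm18584* (0.903) and *Vkorc1* (0.891), the vitamin K reductase gene, which also stands in the list of receptor shedding and TAM signal genes. *Gas6* was most like *Gm6899* (0.963), *Sesn1* (0.962) and *Galt* (0.940), and *Mfge8* most like *Dll1* (0.945), *Sh3d21* (0.943) and *Cbll1* (0.933).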

How the data were processed

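RNA sequencing of 6 macrophage and 4 MEC libraries was used. The authors trimmed the reads with Trimmomatic, mapped them with HISAT2 to GRCm38 and ran featureCounts (version 1.6.2, mapping quality of at least 10, strand setting 2) on Ensembl release 100. The deposited values are raw counts per gene, and every sample column was used. The MEC libraries of each genotype are numbered 1 and 3, and a library 2 had no column of counts. Whether the low-input kit marks strand is not given in the sources used here. *Gas6*, *Stab1* and *Stab2* overlap an exon of a gene on the opposite strand by 34, 112 and 141 bases, and without strand the reads there cannot be told apart. Positions are on GRCm38, and symbols come from GENCODE release M21.

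A gene entered a fit if it was 300 nt or longer and exceeded 1 CPM in 2 or more of its libraries. Each cell type was fitted alone for genotype with edgeR (version 4.0.16, R version 4.3.3), with TMM scaling, the QL test and BH adjustment over all genes tested. The comparison of cell types in WT and the interaction came from 1 fit of all 10 libraries. The likelihood ratio test of edgeR, which the study used, was run as an alternative, as was DESeq2 (version 1.42.0). The QL test was tested on simulated counts with 200 genes changed 4-fold. It called 77% of them in the macrophage design, 94% in the MEC design, 76.5% between cell types and 39.5% for the interaction, and 3.77% to 14.1% of its calls were unchanged genes. The changed genes were drawn above a minimum mean count, and before the change each gene had a common mean in all libraries. Smaller changes, genes of low count and the difference between cell types were not simulated. Intervals cover the spread between libraries. The labels do not say which animals the libraries came from, so that spread may be technical in part.

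The members, the 9 lists of other uptake genes and the 9 marker lists were chosen with earlier results of these data known. All 10 members were named, and from each other list at most 3 called genes with the smallest *P* per comparison, or the single gene with the smallest *P* where none was called. For *Mertk*, *Axl*, *Gas6* and *Mfge8* the 3 most alike genes were named. Some genes that this rule names are not reported here.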

Additional observations from a re-analysis of the deposited data

Results flagged for a closer look

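Within the 4 *Cebpb*ΔM macrophage libraries, the only group of 4, the values of each of the 10 genes were examined for a library that stood apart from the others. *Lrp1* in *Cebpb*ΔM 5, at 251 CPM, was the single value set apart by its gap to the next library (212 CPM) relative to the range of the group (205 to 251 CPM), by Dixon's criterion at 95%. WT macrophage library 5 was at 242 CPM. Chance gives about 1 such value in 20 groups, and 10 groups were examined.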

How the results depend on the processing

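The calls on members were 0 in both genotype comparisons and in the interaction under every alternative run. Between cell types they were 6 by the QL test, 7 by the likelihood ratio test and by DESeq2, and 3 to 7 with a library left out, the 3 without MEC WT 3. Over all genes the likelihood ratio test called 138 genes by macrophage genotype, 179 by MEC genotype and 53 in the interaction, and DESeq2 called 201, 161 and 27, against 0, 8 and 0 by the QL test. In MECs the QL test called 67 genes without a filter, 0 in the fit of all 10 libraries and 2 (without WT 3), 42 (without *Cebpb*ΔM 1), 98 (without WT 1) and 337 (without *Cebpb*ΔM 3) with a library left out, where the lone library of a genotype is taken to vary like the rest. The other uptake genes called there were 0 to 7. Between cell types 2456 to 4846 genes were called with a library left out, against 4664, with 2456 without MEC WT 3, 2733 without MEC WT 1 and 3041 without macrophage WT 5, and the interaction had 0 to 1. With the replicate number as a block (replicate block), the QL test called 12 genes by macrophage genotype, 205 by MEC genotype and 1 in the interaction, and no member. The deviations of same-numbered libraries had r of 0.129 (macrophages 4), -0.0865 (macrophages 5) and 0.106 (MECs). With 2 MEC libraries per genotype the r of both numbers is the same by construction. These values neither pair the libraries nor exclude a pairing.

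The sign of uncalled values was not stable. In the macrophage genotype comparison the log2 fold change turned to -0.19 for *Stab1*, -0.32 for *Cd36* and 0.054 for *Lrp1* with the block, to -0.17, -0.30 and 0.067 with replicates 4 and 5 only, and for *Lrp1* to 0.0038 without a filter and 0.019 in the fit of all 10 libraries. In MECs it turned to 0.0097 for *Tyro3* and 0.0091 for *Stab1* with edgeR's filterByExpr. In the interaction it turned to 0.00299 for *Axl* with DESeq2 and 0.0030 with the relative log expression factors, and to -0.11 for *Stab1* and -0.094 for *Cd36* with the block. With a library left out, the log2 fold change that changed sign or call ranged, by macrophage genotype, over *Mertk* -0.10 to 0.92, *Axl* -0.024 to 0.19, *Tyro3* -0.42 to 0.65, *Stab1* -0.15 to 0.23, *Cd36* -0.26 to 0.36, *Lrp1* -0.14 to 0.15; by MEC genotype, over *Mertk* -0.29 to 0.24, *Axl* -0.10 to 0.42, *Tyro3* -0.11 to 0.13, *Mfge8* -0.65 to 0.20, *Stab1* -0.39 to 0.29, *Lrp1* -0.68 to 0.0011; between cell types, over *Mertk* 1.04 to 2.05, *Axl* 0.80 to 1.35, *Gas6* -0.33 to 0.31, *Pros1* 0.48 to 1.17, *Stab2* 2.99 to 3.83; and in the interaction, over *Mertk* -0.041 to 0.97, *Axl* -0.30 to 0.25, *Tyro3* -0.40 to 0.67, *Gas6* -0.072 to 0.57, *Mfge8* -0.013 to 0.89, *Stab1* -0.19 to 0.44, *Cd36* -0.036 to 0.55. The causes were not tested. Depth limits *Stab2*, at 12 to 141 counts per library, and *Cebpb*.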
